A study of Saccharomyces cerevisiae with 56 samples.

Results

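The comparison set the abundance of PDZ3 variants carried on the domain with the extension that the labels name C against the abundance of the same variants on the domain with the extension named N. PSD-95 is a scaffold protein of excitatory synapses, and PDZ3 is one of its PDZ domains. The variants were expressed in the yeast strain BY4742 and grown in competition in medium with methotrexate (abundancePCA). The members were the single and double missense variants with a usable score in both sets, matched by their sequence. They numbered 42404 variants, 1139 single and 41265 double, of 48579 such variants in C and 44323 in N, and of 384696 entries in the whole series. In each set 3 input libraries, 3 output libraries and 1 wild-type library were sequenced, and the competitions ran for 5 generations at 30 °C in 400 mL from an optical density of 0.05. The series held 56 libraries in all. The other libraries carried the domain alone (PDZ3) or with both extensions (NC), or were read for binding. The sequence of either extension is not given in the sources used here.

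A PDZ domain is a small fold of strands and a pair of main helices that binds the C-terminal end of a partner protein in the groove between its second strand and its second helix. A loop before the second strand, with a glycine-leucine-glycine-phenylalanine motif (G322 to F325), holds the carboxylate of the ligand. The third PDZ domain of PSD-95 is known for an additional helix after the fold that packs against it. In abundancePCA the domain is fused to a fragment of a methotrexate-resistant dihydrofolate reductase, so that cells with more soluble domain grow faster. A substitution that unfolds the domain or speeds its loss lowers the score.

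The authors merged the cultures into 1 fitness score and 1 standard error for each variant, so no value per culture could be given and the read depth is unknown. The raw range differed between the sets. The median single nonsense variant, a premature stop, scored -1.23 in C and -0.901 in N, and the wild type grew at 0.132 in C and 0.147 in N in the authors' units. Scores below are therefore scaled within each set, with 0 for the set's own wild type and -1 for its median single nonsense variant. The authors' errors were widened until nonsense variants from G345 on spread as their errors said, by 1.26 times in C and 3.05 times in N. Synonymous variants alone would have called for 1.08 times in C and 1.31 times in N, so the widened errors are wide for them, above all in N. With these widened errors 12 of 286 synonymous variants in C and 3 of 275 in N still differed from the wild type, all of them above it. Synonymous variants had a weighted mean score, unscaled, of 0.0109 in C and 0.0277 in N. Values after ± are standard errors of this kind, and every difference is C minus N. Each difference was tested with a two-sided normal test with Benjamini-Hochberg adjustment over all 42404 variants, or over the 60 residues with at least 10 matched substitutions, at a threshold of 0.05. Since the errors are the authors' own, no test here measures a spread between cultures. Substitutions of a residue are not replicates of it.

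On the scaled score, single substitutions cost less abundance in C than in N. The 1139 singles averaged -0.173 in C and -0.257 in N, a difference of 0.0841 ± 0.0125 (two-sided normal test, n = 1139, p = 1.86e-11), and 853 of them scored higher in C. In C 144 singles (12.6%) lay below -0.5, against 219 (19.2%) in N. By the test for each variant 224 singles (19.7% of 1139) were higher in C and 17 (1.49%) were lower. The size of this shift depends on the scale. On the unscaled score 165 singles were higher and 94 lower in C, and on the authors' growth rate 188 were higher and 50 lower, so that the higher calls made up 92.9% of the calls on the scaled score and 63.7% on the unscaled one.

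Every class of new residue scored higher in C on the scaled score. Changes to proline, which most backbones do not tolerate inside strands or helices, averaged -0.421 in C and -0.533 in N over 59 variants, a difference of 0.112 ± 0.0252. Changes to an aliphatic or aromatic residue averaged -0.133 in C and -0.227 in N over 453 variants. Changes to a charged residue averaged -0.242 in C and -0.312 in N over 227 variants. All 5 classes of new residue passed the threshold in the same direction, with adjusted p-values from 2.04e-14 to 8.77e-06 (normal test with Benjamini-Hochberg adjustment). On the unscaled score the differences for proline, glycine and charged residues had the opposite sign.

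The relation between the sets was bent rather than a constant offset. Singles that scored between -0.8 and -0.6 in N had a median of -0.306 in C, against -0.687 in N. Those between -0.4 and -0.2 in N had a median of -0.112 in C, against -0.279 in N. The gap was smaller toward the ends. Below -1 in N the medians were -0.993 in C and -1.08 in N, and between -0.1 and 0 in N they were -0.0203 in C and -0.0490 in N. Above 0.1 in N, where 30 singles lay, the order was the other way, with medians of 0.0526 in C and 0.127 in N. Pearson's r between the sets was 0.912 across the 1139 singles, a description across variants that share their cultures. The bins were chosen by the N score, and how far this choice alone draws the C medians toward the middle was not tested.

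Because of that bend, a residue that behaves like the rest lies on the running median of the C score over the N score (50 substitutions on either side) and not on the line of equal scores. The mean departure of a residue's substitutions from that running median serves here as a description without a test. Its sign does not depend on how either set is scaled. With the sets exchanged, 51 of 60 residues departed in the opposite direction.

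**Figure D1:**
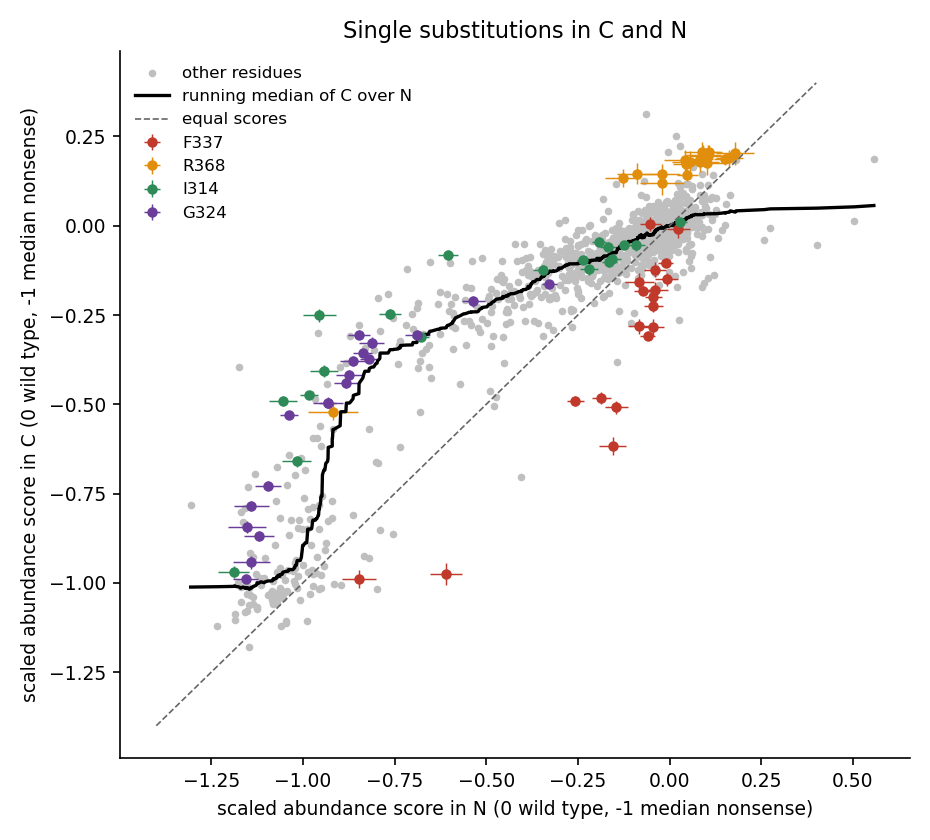
Scaled abundance score of the 1139 single substitutions in C (vertical axis) against N (horizontal axis), with 0 for the wild type and -1 for the median nonsense variant. Colored points are the substitutions of F337, R368, I314 and G324 with standard errors, the black line is the running median and the dashed line marks equal scores. 18 of 19 substitutions of F337 lie below the running median and all 19 of R368 above it, as do 18 of 19 of G324 and 12 of 19 of I314.

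By residue, 36 of 60 residues (60%) were higher in C and 3 (5%) were lower. On the unscaled score 24 were higher and 12 lower, and on the growth rate 30 were higher and 7 lower. The 3 residues lower in C on the scaled score were F337, F340 and G329. G319, S320, G351, G356 and N363 had 0 matched singles and D332 had 1, so these 6 were not tested.

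**Figure D2:**
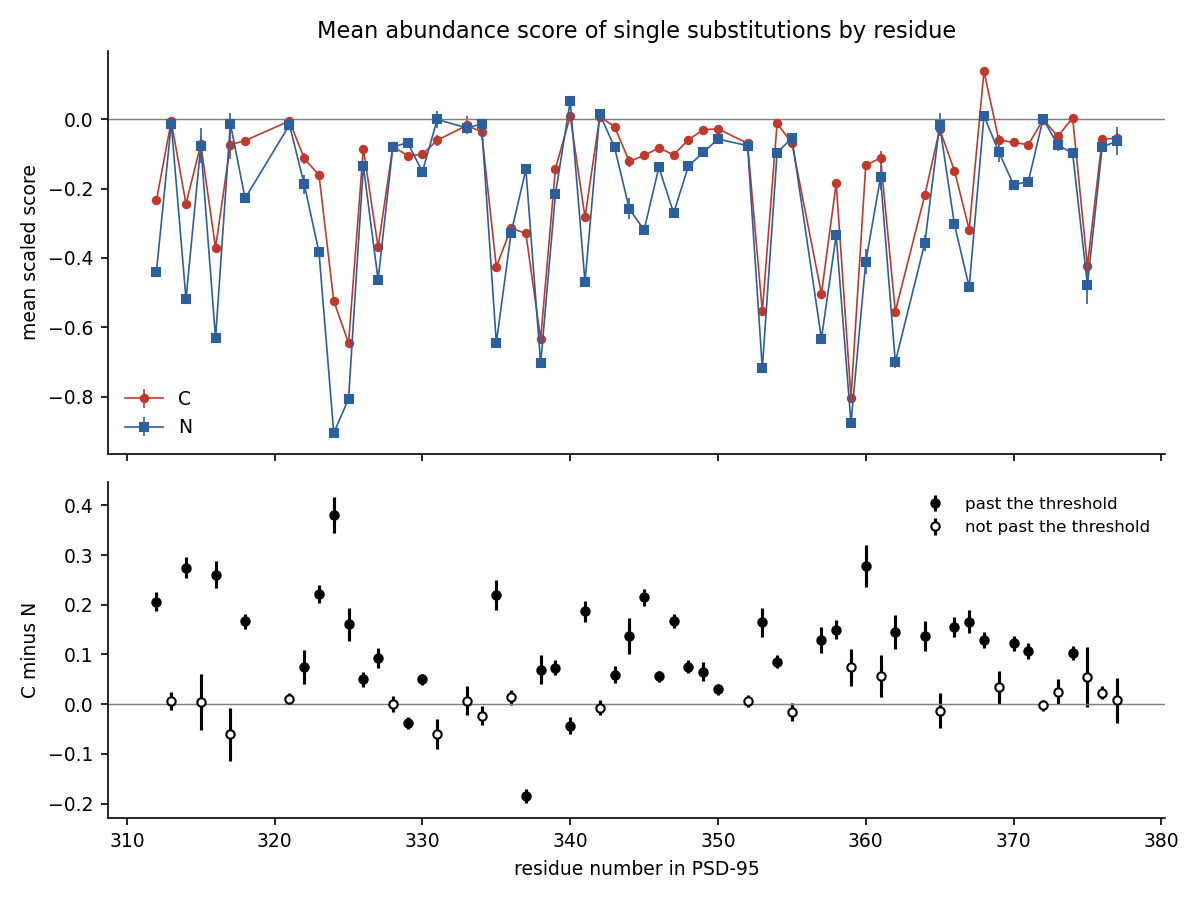
Upper panel, mean scaled abundance score of the single substitutions of each of 60 residues in C and N, by residue number, with standard errors. Lower panel, the difference C minus N with its standard error, where filled points passed the threshold; F337 stands alone at -0.184 and G324 is the highest at 0.381.

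The clearest exception was F337, a phenylalanine of the third strand. Its 19 substitutions averaged -0.330 in C and -0.145 in N, a difference of -0.184 ± 0.0136 (normal test with Benjamini-Hochberg adjustment over residues, n = 19 substitutions, adjusted p = 3.26e-40). Of the 17 singles lower in C in the whole block, 12 were at F337. The residue lay furthest below the running median of all 60, with a mean departure of -0.259, and 18 of its 19 substitutions were below it. F337 was lower in C in all settings tried. On the unscaled score its difference was -0.274.

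The substitutions of F337 followed a clear order in C. With asparagine in its place (F337N) the score was -0.617 ± 0.0241 in C and -0.156 ± 0.0365 in N, the largest fall of any single with an error of the difference under 0.1. F337E scored -0.508 in C and -0.145 in N, F337A scored -0.482 in C and -0.186 in N, and F337G scored -0.491 in C and -0.257 in N. These small or polar residues were mild in N and costly in C. F337D was costly in both sets, at -0.976 ± 0.0300 in C and -0.609 ± 0.0436 in N. F337S scored -0.308 in C and -0.0599 in N. F337C scored -0.284 in C and -0.0464 in N, and F337Q scored -0.282 in C and -0.0821 in N. The other members that fell were F337T, F337V, F337K and F337L, by 0.111 to 0.180.

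The aromatic replacements behaved differently. F337Y scored -0.00862 ± 0.0246 in C and 0.0242 ± 0.0314 in N, and F337W scored 0.00520 ± 0.0189 in C and -0.0528 ± 0.0284 in N. Neither passed the test, and both lay near the wild type in both sets. F337M, F337H, F337I and F337R lay lower in C by 0.0739 to 0.141 without passing it. F337P scored -0.990 in C and -0.847 in N and did not pass it either.

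**Figure D3:**
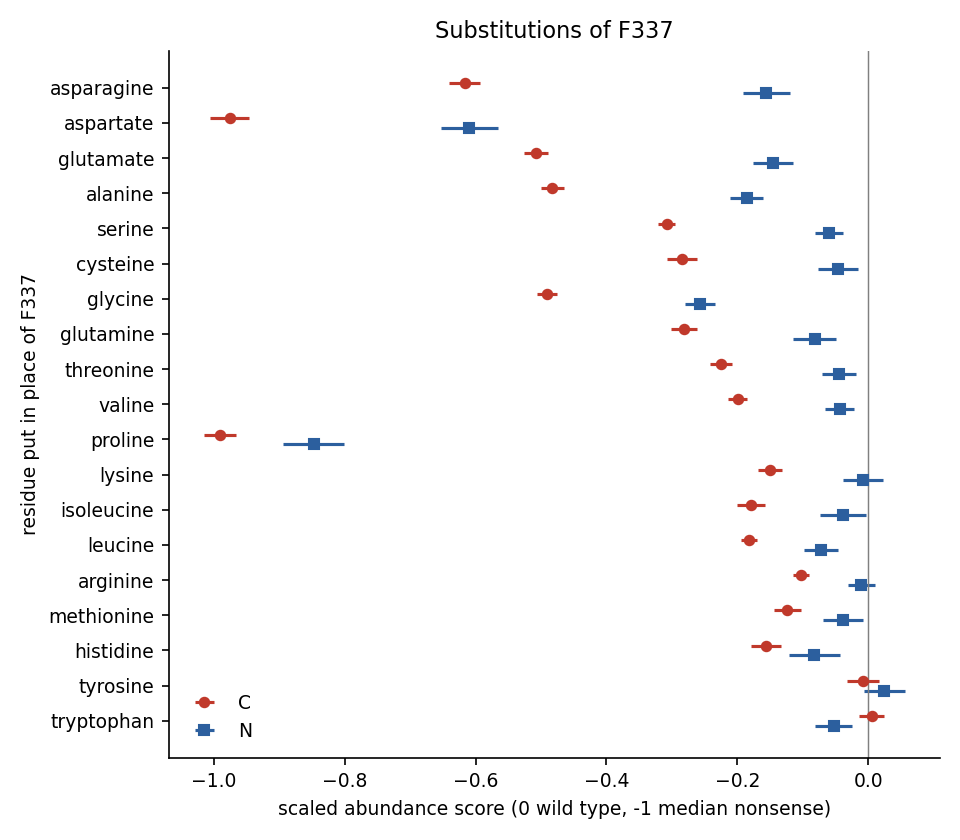
Scaled abundance score (horizontal axis, 0 for the wild type and -1 for the median nonsense variant) of the 19 substitutions of F337 in C and N, ordered by their difference, with standard errors. C lies to the left of N for 18 of 19 replacements, and tryptophan is the exception.

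The level of F337 in C was close to that of the domain alone. Its substitutions averaged -0.331 in PDZ3 and -0.136 in NC, beside -0.330 in C and -0.145 in N. The usual order was another one: the median residue averaged -0.0935 in C, -0.160 in N, -0.318 in PDZ3 and -0.0408 in NC. These 4 levels are given side by side, and PDZ3 and NC were not tested against C or N here.

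The neighbours of F337 in the third strand also lay below the running median. I336 and I338 are hydrophobic residues on either side of it. I336 averaged -0.315 in C and -0.328 in N, a difference of 0.0135 ± 0.0158 that did not pass the test, but with a departure of -0.118 from the running median. Its calls went both ways. I336G scored -0.703 ± 0.00964 in C and -0.404 ± 0.0162 in N and was lower in C, while the 3 substitutions I336N, I336P and I336Q were higher, with I336N at -0.105 in C and -0.226 in N. I338, unlike F337, was itself called higher in C. It averaged -0.635 in C and -0.704 in N, a difference of 0.0697 ± 0.0298 (n = 19 substitutions, adjusted p = 0.0307), with a departure of -0.122. I338A, I338L, I338M, I338S and I338T were higher in C, with I338M at -0.342 in C and -0.831 in N, and I338D was lower, at -1.02 in C and -0.798 in N. The differences of I336 and I338 turn negative on the unscaled score and on the growth rate. The residues with the 5 lowest departures were F337, I338, I336, D357 and G329.

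F340 and G329 were the other residues lower in C, by small amounts in their singles. F340 averaged 0.00830 in C and 0.0516 in N, a difference of -0.0433 ± 0.0172 (n = 19 substitutions, adjusted p = 0.0197), with no single substitution past the test. G329, a glycine in the second strand, averaged -0.105 in C and -0.0682 in N, a difference of -0.0370 ± 0.0121 (n = 19 substitutions, adjusted p = 0.00373). Of its substitutions 2 were called lower in C, with G329I at -0.272 in C and -0.105 in N, and 1 was called higher. Neither residue passed the test in its singles when both sets were centred on their synonymous variants. In doubles both passed as lower in C. The difference was -0.131 ± 0.0198 over 948 doubles of G329 and -0.0544 ± 0.0141 over 1005 of F340. How much of this belongs to their partners was not separated. Of the 7 residues of the third strand, 3 were higher and 2 lower in C, against 36 and 3 of all 60. They held 133 of the 1139 singles, with 14 of the 17 lower in C and 21 of the 224 higher ones. Of those 14 falls, 12 were at F337. The other called falls were G329I, G329L and Q358H, and the last of these scored 0.0135 ± 0.0220 in C and 0.504 ± 0.129 in N, an N value with a large error.

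The double variants showed the same residue. By the test for each variant, 9 doubles (0.0218% of 41265) were higher in C and 31 (0.0751%) were lower. The error of 1 double was large, with a median authors' error of 0.168 in C and 0.111 in N before widening. Of the 31 doubles lower in C, 29 carried a change of F337, and the others were G329S/I336G and G330R/I336G. The 1330 doubles with F337 averaged -0.661 in C and -0.396 in N, a difference of -0.265 ± 0.0225. The difference was below 0 for 1109 of them (83.4%), against 40.0% of the 39889 doubles without F337. The direction held with each of its partners. Doubles with V328 averaged -0.558 in C and -0.249 in N, and those with E334 averaged -0.455 in C and -0.224 in N. Those with Q358 averaged -0.734 in C and -0.412 in N, and 228 of these 266 differences lay below 0. The mean widened error of a Q358 double was 0.209 in C and 0.571 in N, and 0 of the 266 passed the test.

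The balance between higher and lower doubles changes with the scale and the error. On the unscaled score 4 doubles were higher and 127 lower. On the growth rate 6 were higher and 70 lower. With the errors as deposited 1839 were higher and 585 lower, and with doubles adjusted apart from singles 1 was higher and 8 were lower. The mean of all doubles was -0.567 in C and -0.624 in N, a difference of 0.0571 ± 0.0255 (two-sided normal test, n = 41265, p = 0.0253). This difference was -0.134 on the unscaled score, and 0.000836 when the lowest 5% of missense variants set the scale.

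The pair G335/F337 held 23 of the 31 doubles lower in C. G335 lies just before the third strand and is itself a costly residue to change. Its 19 singles averaged -0.426 in C and -0.646 in N, so that G335 alone was higher in C by 0.220 ± 0.0295. Together with F337 the order turned: the 351 doubles of the pair averaged -0.920 in C and -0.707 in N. They were looked at in detail after their values were seen, and the following counts are a description.

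In N, G335 variants scored nearer to the wild type when they also carried certain changes of F337, and in C they did not. Doubles with F337R scored above the G335 single they contain in 2 of 19 cases in C, with a mean shift of -0.329, and in 19 of 19 cases in N, with a mean shift of 0.410. Doubles with F337K did so in 1 of 18 cases in C (mean -0.40) and in 18 of 18 in N (mean 0.402). Doubles with F337T did so in 2 of 19 cases in C (mean -0.389) and in 19 of 19 in N (mean 0.334). Each of these comparisons was made within 1 set, so no scaling between the sets enters its sign.

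G335V/F337R shows the contrast. The double scored -1.02 ± 0.0951 in C and -0.258 ± 0.0726 in N, a difference of -0.759 ± 0.121 that passed the test. G335V alone scored -0.782 in C and -0.955 in N, and F337R alone scored -0.103 in C and -0.0111 in N. In C the double lay below both singles, and in N it lay well above the costly one. G335L/F337R scored -0.920 ± 0.0730 in C and -0.359 ± 0.0630 in N, where G335L alone scored -0.824 in C and -1.03 in N, so that in C the change at F337 moved it by little more than the error. With a milder start the pattern in C was a loss. G335R/F337R scored -0.744 ± 0.0561 in C and -0.204 ± 0.0564 in N, and G335R alone scored -0.204 in C and -0.440 in N. G335S/F337R scored -0.567 in C and -0.0938 in N, and G335S alone scored -0.134 in C and -0.267 in N.

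Other replacements of F337 showed part of this or none of it. Doubles with F337S scored above the G335 single in 1 of 19 cases in C and in 14 of 19 in N, with means of -0.544 in C and 0.126 in N. Those with F337Q did so in 2 of 19 cases in C and in 12 of 19 in N. With F337D the doubles lay above the G335 single in 0 of 18 cases in C and 1 of 18 in N, and with F337P in 1 of 19 in either set. For 3 replacements the mean of the doubles was higher in C. Doubles with F337W averaged -0.710 in C and -1.03 in N, those with F337Y averaged -0.458 in C and -0.609 in N, and those with F337P averaged -0.990 in C and -1.08 in N. Of these doubles 0 passed the test for a single variant.

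**Figure D4:**
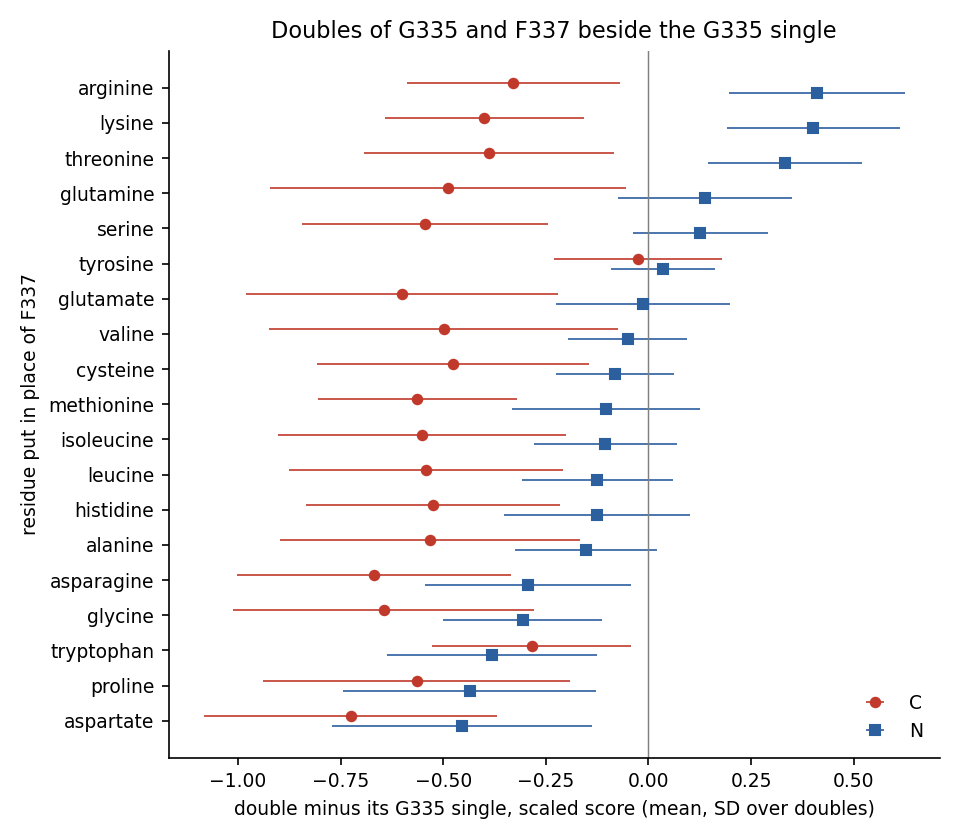
Mean score of the doubles of G335 and F337 minus the score of the G335 single they contain (horizontal axis, scaled score), by the residue in place of F337, in C and N, with the SD over 16 to 19 doubles. In C every replacement lies to the left of 0, and in N arginine, lysine and threonine lie to the right of it by 0.334 to 0.410.

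R368 was the residue furthest above the running median. It lies just before the second helix, where the wild type has an arginine. Its 19 substitutions averaged 0.138 in C and 0.00912 in N, a difference of 0.129 ± 0.0158 (n = 19 substitutions, adjusted p = 2.04e-15), and all 19 departed upward, by 0.151 on average. With the sets exchanged its departure was 0.0133, not of the opposite sign. Without proline they lay between 0.12 and 0.206 in C, with a median of 0.181, so that each of these 18 changes scored above the wild type there. In N they lay between -0.128 and 0.179 with a median of 0.0842. R368V scored 0.206 ± 0.0201 in C and 0.108 ± 0.0335 in N, and R368K scored 0.202 ± 0.0334 in C and 0.179 ± 0.0515 in N, and neither difference passed the test. R368W, at 0.133 in C and -0.128 in N, R368D, at 0.146 in C and -0.0876 in N, and R368P, at -0.521 in C and -0.918 in N, did pass it. The substitutions averaged -0.0670 in PDZ3 and 0.15 in NC. The 1247 doubles with R368 averaged -0.158 in C and -0.365 in N, a difference of 0.207 ± 0.0232 that passed the test.

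The loop that holds the ligand's carboxylate was higher in C for 5 of its 6 measured residues, against 36 of all 60. The median residue of the loop was higher in C by 0.164, against 0.0714 over all residues. G324, the second glycine of the motif, differed most of all residues. Its substitutions averaged -0.524 in C and -0.905 in N, a difference of 0.381 ± 0.0363 (n = 19 substitutions, adjusted p = 6.81e-25), and 17 of 19 were called higher. G324M scored -0.305 ± 0.0125 in C and -0.846 ± 0.0302 in N. G324A scored -0.356 in C and -0.837 in N, and G324V was near the nonsense level in both, at -0.988 in C and -1.16 in N. Leucine at the preceding position, L323, averaged -0.161 in C and -0.384 in N, and L323Q scored -0.308 in C and -0.872 in N. F325, the phenylalanine of the motif, was costly in both sets, at -0.646 in C and -0.806 in N, and 6 of its 19 substitutions were called higher. F325T scored -0.407 in C and -0.948 in N. The difference of F325 turns to -0.0664 on the unscaled score, while those of G324 and L323 stay above 0. R318 averaged -0.0619 in C and -0.229 in N, and R318W scored -0.301 in C and -0.958 in N. G322, the first glycine of the motif, averaged -0.113 in C and -0.188 in N (n = 19 substitutions, adjusted p = 0.0426), a call that was lost on the unscaled score.

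In the first strand 3 of 6 residues were higher in C, against 36 of all 60, and the isoleucines I314 and I316 had large rises. I314 averaged -0.244 in C and -0.519 in N, a difference of 0.275 ± 0.0218. Its mildest change was close in both sets, with I314V at 0.00914 in C and 0.0294 in N. Its 12 called rises included all 4 charged changes, and also I314G, at -0.311 in C and -0.679 in N, and I314W, at -0.660 in C and -1.02 in N. The polar change I314C was not called, at -0.0552 in C and -0.0917 in N. I314N scored -0.250 ± 0.0183 in C and -0.955 ± 0.0444 in N, the largest rise among singles with an error of the difference under 0.1. I314E scored -0.0821 in C and -0.605 in N, I314K scored -0.492 in C and -1.05 in N, and I314D scored -0.407 in C and -0.943 in N. I314P was near the nonsense level in both. I316 averaged -0.371 in C and -0.632 in N, a difference of 0.261 ± 0.0266, with 13 substitutions called higher. R312, at the start of the block, averaged -0.234 in C and -0.440 in N, with 16 called higher. R313, V315 and H317, the alternate residues of the same stretch, did not pass the test, with differences between -0.0609 and 0.00616.

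Around the first helix, 8 of 9 residues were higher in C, against 36 of all 60. A347 averaged -0.103 in C and -0.271 in N, a difference of 0.168 ± 0.0138, and 16 of 19 substitutions were called higher. A347E scored -0.112 in C and -0.386 in N. G345 averaged -0.105 in C and -0.320 in N, a difference of 0.215 ± 0.0167 with 14 called. The doubles G345L/D348L and G345L/D348G were higher in C. G345L/D348L scored -0.280 ± 0.0439 in C and -0.680 ± 0.0892 in N, with G345L alone at -0.0860 in C and -0.316 in N. G344L/D348R scored -0.296 in C and -0.735 in N. These 3 doubles did not pass the test on the unscaled score, on the growth rate, or with doubles adjusted apart from singles.

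Around the fourth strand 6 of 9 residues were higher in C, near the share of 36 of 60 over all residues. L360 averaged -0.133 in C and -0.411 in N, a difference of 0.278 ± 0.0416, and L360S scored -0.191 in C and -0.768 in N. The double Q358R/L360S kept the level of L360S, at -0.155 in C and -0.779 in N. L353 averaged -0.554 in C and -0.719 in N, a difference of 0.165 ± 0.0294 that turns to -0.0323 on the unscaled score. L353T scored -0.202 ± 0.00854 in C and -0.797 ± 0.0211 in N. I359 was the costliest residue in C, at -0.803 in C and -0.876 in N, and its difference did not pass the test.

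Neighbouring changes of L353 and R354 gave 5 of the 9 doubles higher in C. L353V/R354G scored -0.10 ± 0.0629 in C and -0.940 ± 0.15 in N, although L353V alone scored 0.0515 in C and -0.0541 in N and R354G alone scored 0.00244 in C and -0.216 in N. L353A/R354Q scored 0.0996 in C and -0.641 in N, and L353A/R354L scored -0.207 in C and -0.765 in N. L353A alone scored 0.0148 ± 0.00843 in C and -0.285 ± 0.0166 in N. L353C/R354S scored -0.101 in C and -0.935 in N. In C the singles of these doubles lay between 0.00244 and 0.0596. Over all doubles of the pair the means were -0.751 in C and -0.854 in N, a smaller gap than in the doubles named here. L353A/R354L did not pass the test on the unscaled score (a difference of 0.435) or with doubles adjusted apart from singles, where 1 double in all was higher in C.

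Of the 7 residues of the second helix, which lines the groove opposite the second strand, 2 were higher in C, S371 and Q374, against 36 of all 60. H372, the histidine that contacts the ligand in the groove, averaged -0.00118 in C and 0.000626 in N, a difference of -0.00181 ± 0.0110. 0 of its 19 substitutions passed the test, and their scores ran from -0.0827 to 0.0670 in C and from -0.0956 to 0.0524 in N. A376 averaged -0.0573 in C and -0.0807 in N and did not pass the test. Over the 10 residues of the groove, 7 were higher in C, close to the share over all residues.

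The remaining stretches and the kinds of original residue are given beside the 36 residues higher and 3 lower of all 60. In the second strand 3 of 6 residues were higher in C and 1 was lower. In the loop after it 1 of 3 was higher, and between the fourth strand and the second helix 5 of 7 were. Residues that are aliphatic or aromatic in the wild type were higher in C in 15 of 26 cases and lower in 2, both of them phenylalanines. Charged ones were higher in 7 of 13 cases, polar ones in 6 of 11, and glycines or prolines in 8 of 10, with 1 of them lower.

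Across residues, the mean difference in doubles went with that in singles (Pearson's r 0.647 over 60 residues, a description across residues that share their cultures and, in the doubles, their partners). G322 stood out in the doubles, of which it had 361, at -0.362 in C and -0.630 in N. This was a difference of 0.269 ± 0.0303, against 0.0743 ± 0.0338 in its singles. All 361 lacked F337, and how much of the difference belongs to their partners was not separated. V328, in the second strand, had nearly equal singles, at -0.0788 in C and -0.0794 in N, but its 1014 doubles averaged -0.404 in C and -0.227 in N, a difference of -0.177 ± 0.0185. Without F337 as partner, 660 doubles of V328 remained, with means of -0.321 in C and -0.215 in N. The 1088 doubles of G335 averaged -0.763 in C and -0.714 in N, a difference of -0.0490 ± 0.0343 that did not pass the test. Without F337 the other 737 averaged -0.689 in C and -0.718 in N. This difference of 0.0292 was not tested, and 343 of the 737 lay below 0.

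**Figure D5:**
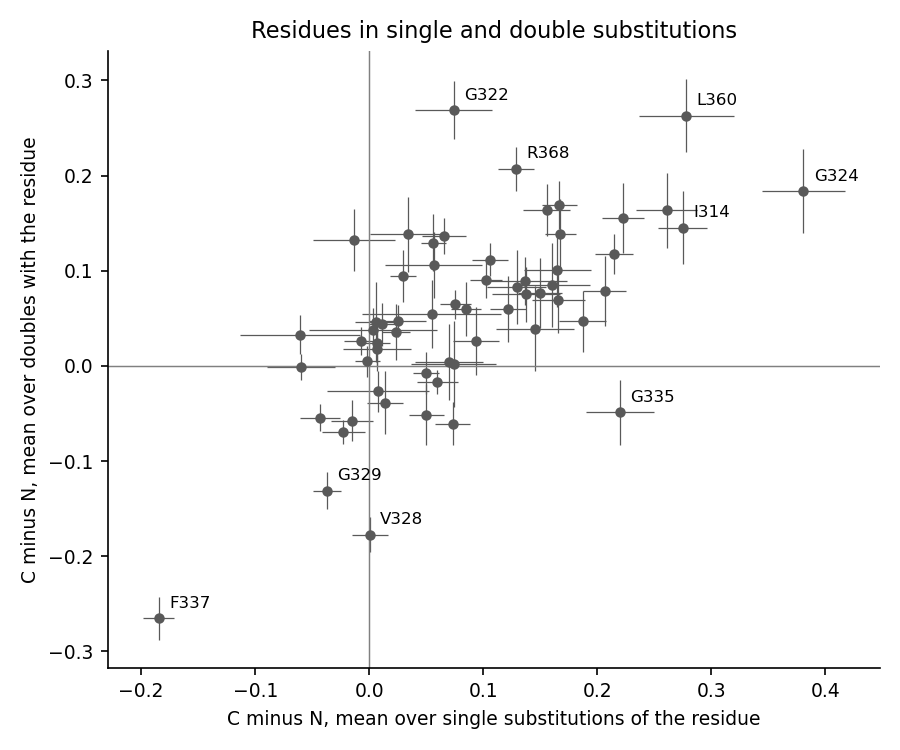
Difference C minus N of each of 60 residues, as the mean over its single substitutions (horizontal axis) and over the doubles that contain it (vertical axis), in scaled score with standard errors. F337 is lowest on both axes at -0.184 and -0.265, V328 is low in the doubles alone, and G335 is high in the singles alone.

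Pairs of mild changes departed more from the sum of their singles in C. In the 12663 doubles whose singles both lay above -0.2 in both sets, the median double scored -0.111 in C and -0.0962 in N, while the median sum of the singles was -0.0419 in C and -0.0843 in N. The median double departed from its sum by -0.0743 in C and by -0.0225 in N. These departures are a description without a test. They shift with the score taken as 0, and synonymous variants lay off that score as given above. The doubles covered 140 pairs of residues, with a median of 326.5 doubles to a pair.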

How the data were processed

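The deposited table held, for each variant, a fitness score, its standard error and a growth rate, an exact straight line of that score, all merged over cultures by the authors. The log base of the score is not stated. Per the submitters' processing notes, cutadapt and FastQC were used, with no version listed. From each sequence the last 2 letters, which differ by set, were left off. 2 entries with a placeholder error were left out of the scores and tests of C and N. In NC the only wild-type entry had such a placeholder error. Its score of 0 set the zero there, and its error was taken as 0. The NC levels given in the results rest on that wild type, and its error is unknown. No column of per-culture values was used.

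Scores were scaled within each set, the errors widened, and differences tested as given in the results, with wild-type and scale errors added, in Python 3.11.15 with NumPy 2.4.6, pandas 2.3.3 and SciPy 1.17.1. The steps were tested on simulated data. Residue numbers are those of PSD-95, and the block covers 66 residues.

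The comparison, the lists of residues and the alternatives were chosen with earlier results of these data known. Named residues were the 8 with the largest differences past the threshold in each direction, the 5 furthest from the running median on either side, and a list from the fold and the groove. Named singles were the 10 largest calls in each direction with an error of the difference under 0.1, and named doubles the 6 largest with one under 0.15 (4 higher ones qualified). All singles of F337, R368, I314 and G324, the other doubles named, and the residues and singles beyond these rules were chosen after their values were seen.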

Additional observations from a re-analysis of the deposited data

How the results depend on the processing

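The depth is unknown, the errors of the N set were widened 3.05 times, and the scale turned directions as given here. No paired analysis was possible because the table lists 1 merged score for all cultures of a set, and leaving out single cultures could not be done either. F337, R368, G324, I314, I316, L323, L360, G345 and A347 kept their direction and their call under every alternative run. On scaled scores F337 ranged from -0.265 to -0.156, R368 from 0.106 to 0.207 and G324 from 0.184 to 0.436.

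On the unscaled score the lower calls numbered 94 singles, 127 doubles and 12 residues, and the higher doubles 4. There the differences were -0.0664 for F325, -0.0361 for I327, -0.0906 for I336, -0.144 for I338, -0.0323 for L353, -0.0477 for D357, -0.195 for I359 and -0.0504 for V362. The means there were -0.134 for doubles, -0.0366 for proline, -0.00751 for glycine and -0.0154 for charged residues. On the growth rate, in its own units, the lower calls were 50 singles, 70 doubles and 7 residues. I336 was at -0.00577, I338 at -0.00678, I359 at -0.0102 and the mean of doubles at -0.00666, while the means for proline (0.00300) and charged residues (0.00244) no longer passed the test. When the lowest 5% of missense variants set the scale, the mean of doubles was 0.000836. These alternatives differ from the reported values in the stretch given to each set.

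With errors as deposited the calls were 464 singles higher and 44 lower, 1839 doubles higher and 585 lower, and 5 residues lower. With deposited errors multiplied by 2 there were 42 doubles higher and 12 lower. With errors widened by the spread of nonsense doubles, an alternative chosen after seeing the data, there were 403 singles higher and 33 lower, and 728 doubles higher and 306 lower. Without wild-type and scale errors 14 doubles were higher, and with deposited errors under 0.1 alone 38 were. Centred on synonymous variants, 16 doubles were higher and 1 residue was lower. H372 changed sign to 0.0173 there and passed the test as higher in C. Residues taken from their doubles gave 7 lower. The sign turned for G330 (-0.00704), G335 (-0.0490) and S339 (-0.0607), and of these S339 alone passed the test as lower. There R312, F325, I327, I338, D357 and V362 kept their sign but no longer passed the test. With singles and doubles adjusted apart, 343 singles were higher, and 1 double was higher and 8 lower. The cause of these changes was not tested beyond the construction of each alternative.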
